A study of Mus musculus with 10 samples.

Results

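Calcium that enters a neuron acts largely through calmodulin and the protein kinases that calmodulin switches on, and 9 genes of this system were followed here in mouse cortex. They are the 4 subunits of CaM kinase II (Camk2a, Camk2b, Camk2d and Camk2g), the kinases Camk4 and Camk1, the calmodulin genes Calm2 and Calm3, and Nrgn, which encodes neurogranin. The 9 were named as a group, with earlier results of these data known and no rule on their values, and all 9 were found by gene symbol among the 53700 gene identifiers counted. Camk2a has a further place in the experiment, because its promoter drove the Cre recombinase.

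Cortices came from 10 female mice aged 4 months, and 1 library of 3′ mRNA reads was made from each. All 10 mice carried the 5XFAD transgenes, human genes with familial Alzheimer's disease mutations under the neuronal Thy1 promoter. In the 5 mice labelled 5XFAD;Neu cKO, floxed Idol, which encodes a ubiquitin ligase for lipoprotein receptors, was to be removed by Camk2a-Cre, a line active in forebrain excitatory neurons after birth, so that other cells kept Idol. The 5 mice labelled 5XFAD were littermate controls labelled WT, which the study spells out for its single-nucleus data as wild type for Idol, and whether they carried Cre is not given in the sources used here.

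Calmodulin binds calcium and then docks onto an amphipathic segment of each CaM kinase, which frees the catalytic site. CaM kinase II is a large holoenzyme that can phosphorylate a threonine next to that segment and so stay active after calcium has fallen, a property tied to long-term potentiation at excitatory synapses. Camk1 and Camk4 work as single chains switched on further by an upstream kinase, and Camk4 acts mainly in the nucleus. Neurogranin holds calmodulin in dendritic spines while calcium is low and lets it go when calcium rises or when protein kinase C phosphorylates it.

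The segments by which these proteins meet calmodulin are printed first, because they show what the coding sequences of the family share and where they differ. In 3 CaM kinase II genes the 22 codons 282 to 303 cover the autophosphorylated threonine, residue 287 in each, and the start of the calmodulin-binding segment. They lie at chr11:5938138-5939014 on the minus strand (Camk2b), chr3:126591375-126591892 on the plus strand (Camk2d) and chr14:20810249-20810524 on the minus strand (Camk2g) of GRCm39, each over 2 coding exons. The 66 coding bases are given 5′ to 3′, with the threonine codon in capitals.
Camk2b: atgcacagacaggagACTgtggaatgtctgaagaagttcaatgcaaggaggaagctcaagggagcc
Camk2d: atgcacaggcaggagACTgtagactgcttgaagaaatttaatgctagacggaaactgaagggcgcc
Camk2g: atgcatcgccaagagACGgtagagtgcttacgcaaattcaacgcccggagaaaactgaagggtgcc
In neurogranin the IQ motif takes the place of that segment, and codons 31 to 45 lie in 1 exon at chr9:37457351-37457395 on the minus strand. Its capitals mark the codon of serine 36, the protein kinase C site.
Nrgn: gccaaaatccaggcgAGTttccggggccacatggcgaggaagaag

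The calmodulin genes are the opposite case, since Calm2 and Calm3 encode the same 149 residues from coding sequences that share 82.55% of their bases. Their first 22 codons lie at chr17:87743331-87754223 (Calm2) and chr7:16651622-16657768 (Calm3), both on the minus strand and each over 3 coding exons. Capitals mark the 8 bases at which the pair differs.
Calm2: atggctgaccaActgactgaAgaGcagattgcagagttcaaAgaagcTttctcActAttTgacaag
Calm3: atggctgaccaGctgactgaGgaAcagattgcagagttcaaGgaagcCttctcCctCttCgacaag

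The CaM kinase II proteins, by contrast, were 84.52% to 90.69% identical in pairs over aligned residues and had 478 (Camk2a), 666 (Camk2b), 499 (Camk2d) and 495 (Camk2g) residues in the form annotated as canonical. The reads came from the 3′ ends of transcripts, so the last 500 bases of each gene were compared with all annotated transcripts. No copy of at least 76 bases at 90% identity or more was found for Camk2d, Camk2g, Camk4, Calm2 or Nrgn. The 3′ end of Camk2b is also covered, over all 500 bases, by a transcript of Ykt6 on the other strand, and that of Camk1 by Ogg1 over 305 bases. The strand setting of the counting is not given in the sources used here, so the counts of Camk2b and Camk1 are uncertain to that extent. A processed pseudogene of Calm3 (Gm5881, 95.4% identical over 351 bases) was counted 46 times in all 10 libraries together, and Gm43099, which matches Camk2a over 82 bases, 22 times.

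Reads on genes numbered from 4320504 to 7466192 per library, and mitochondrial genes took 20.9% to 25.1% of them (median 23.5%) under the label 5XFAD and 20.2% to 24.7% (median 20.5%) under 5XFAD;Neu cKO. Leaving those genes out gave 0 of the 9 genes past the threshold, as with them. Mylip, the gene of IDOL, had 45 to 108 reads per library labelled 5XFAD and 50 to 148 per library labelled 5XFAD;Neu cKO. It averaged 11.24 ± 2.27 CPM under 5XFAD and 14.84 ± 4.90 CPM under 5XFAD;Neu cKO (SD, n = 5 each). The lowest library was 5XFAD;Neu cKO replicate 5, at 7.18 CPM. Its log2 fold change was 0.39 with a 95% interval from -0.10 to 0.89 (edgeR quasi-likelihood test, Benjamini-Hochberg adjusted p = 0.777). Its mean was thus not lower under the label that names its deletion, and every group is called by its label. The paper, by contrast, reported significantly lower Idol mRNA by quantitative PCR in cortices of neuronal Idol knockout mice than in controls. Mylip reads here were few and came from the 3′ end, and removal of the floxed part was not tested with them. Markers of excitatory neurons were present throughout, their sum running from 1085 to 1239 CPM under the label 5XFAD and from 1146 to 1204 CPM under 5XFAD;Neu cKO. Summed microglial markers ran from 474 to 696 CPM and from 323 to 411 CPM without overlap. In bulk cortex, fewer cells of a type and less RNA per cell cannot be told apart. Here CPM are counts brought to a common library size with edgeR's TMM factors. They were not divided by length, since every transcript is read at its 3′ end only.

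None of the 9 genes differed between the groups at an adjusted p under 0.05, against 0.218% of the 19268 genes tested (edgeR quasi-likelihood, Benjamini-Hochberg). With p unadjusted, 1 of 9 (Calm2) was under 0.05, where the share over all genes was 7.95%, and it was 0 of 9 without 5XFAD replicate 2, 5XFAD replicate 5 or 5XFAD;Neu cKO replicate 5. With plain library totals 4 of 9 were under 0.05 unadjusted (Camk2b, Camk1, Calm2 and Calm3), against 9.36% of all genes. In 0 of 9 did all libraries of a group lie on the same side of all libraries of the other, which held for 1.30% of all genes. Estimated log2 fold changes (5XFAD;Neu cKO against 5XFAD) were positive for 5 genes and negative for 4, of which Camk2a, Camk4 and Nrgn turned positive with plain library totals, and their median was 0.066 beside -0.00056 over all genes tested. DESeq2 gave 0 of 9 as well. What the data hold about these genes is therefore the level of each, how closely it was measured, and how large a difference the intervals still allow.

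**Figure D1:**
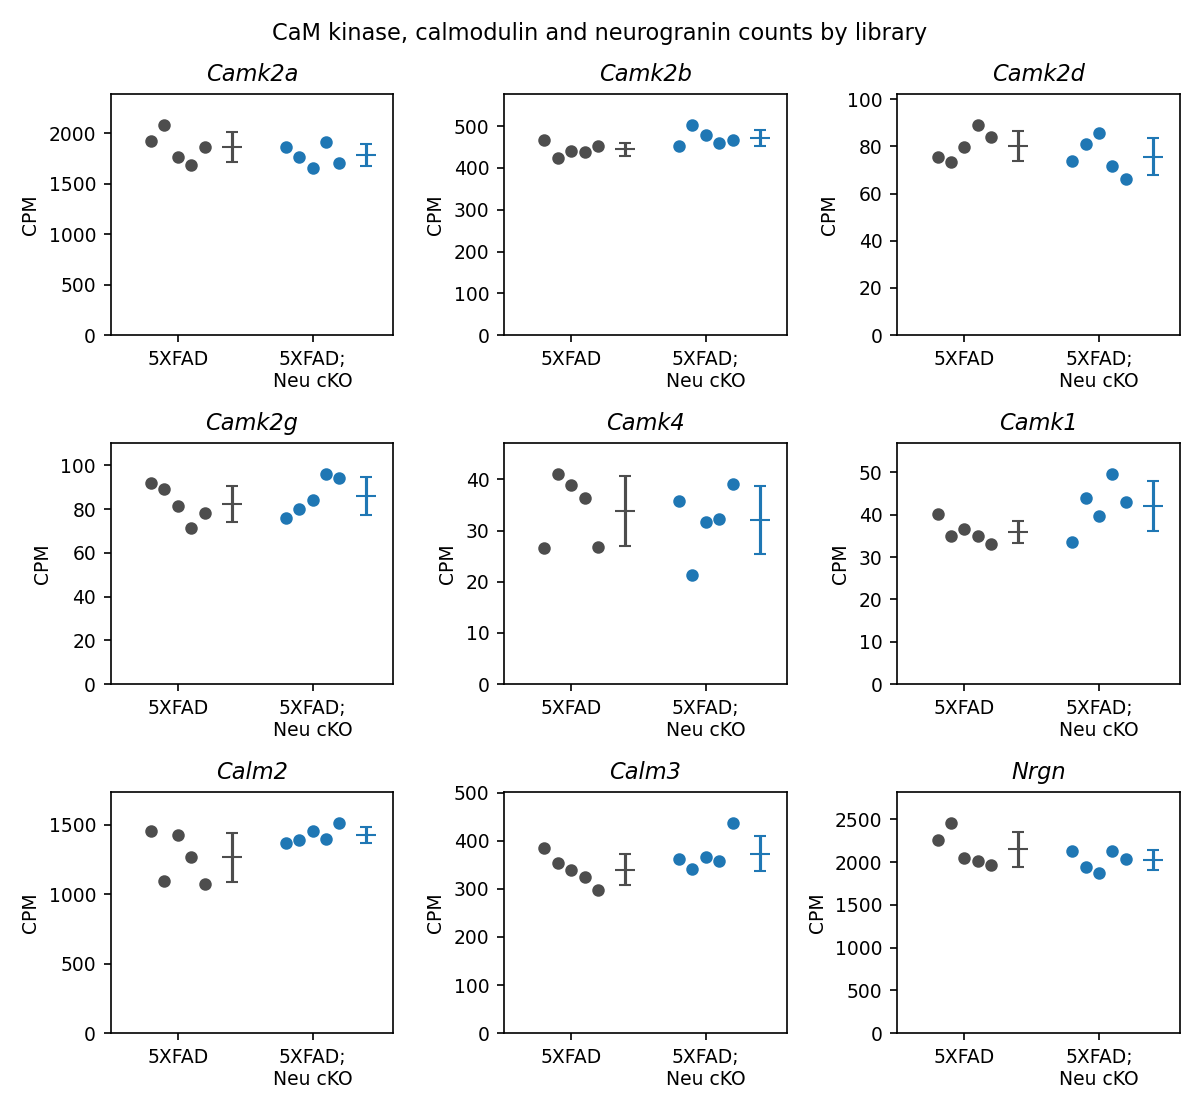
Level of each of the 9 genes in CPM (vertical axes, from 0) in the 5 libraries labelled 5XFAD (grey) and the 5 labelled 5XFAD;Neu cKO (blue), in the order of replicates 1 to 5, with the mean and SD to the right of each group. In all 9 panels the groups overlap, and Calm2 shows a pair of low 5XFAD libraries, replicates 2 and 5, at 1097 and 1076 CPM.

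Ordered by mean CPM over all 10 libraries, the genes ran from Nrgn (2086) and Camk2a (1823) through Calm2 (1346), Camk2b (458), Calm3 (356), Camk2g (84.3) and Camk2d (78.0) to Camk1 (39.0) and Camk4 (32.96). Nrgn, Camk2a and Calm2 stood at ranks 19, 24 and 34 of the 19268 genes, and Camk4 at rank 4429. Nrgn was above Camk2a in 10 of 10 libraries, by 1.06 to 1.20 times, although the ranges of the pair overlapped. Camk2b was likewise above Calm3 in 10 of 10 libraries. Camk2g against Camk2d, and Camk1 against Camk4, were ordered this way in only 6 of 10 libraries each, so these neighbours did not differ beyond their spread. The other 4 neighbouring pairs had ranges apart.

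Camk2a encodes the alpha subunit, the main CaM kinase II of forebrain excitatory neurons, and is found on chromosome 18 (GRCm39, 61058473 to 61121224, plus strand). In the libraries labelled 5XFAD it was at 1922, 2080, 1766, 1689 and 1863 CPM in replicates 1 to 5, and in those labelled 5XFAD;Neu cKO at 1865, 1766, 1653, 1916 and 1706 CPM. The highest library was 5XFAD replicate 2 and the lowest 5XFAD;Neu cKO replicate 3, and the other values of the groups were interleaved. The means were 1864 ± 150.2 CPM and 1781 ± 109 CPM (SD, n = 5 each), a log2 fold change of -0.066 with a 95% interval from -0.20 to 0.065, which turned to 0.023 when libraries were scaled by plain totals (edgeR quasi-likelihood test, Benjamini-Hochberg adjusted p = 0.899). In percent the interval ran from -12.7 to 4.62, so a difference in either direction larger than these was outside it. The counts sum all reads on the gene, and reads of a Cre transgene were not analysed here.

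Camk2b, the beta subunit, carries an actin-binding linker that anchors the holoenzyme in spines, and lies on chromosome 11 from 5915791 to 6016362 (minus strand). It was at 466, 423, 441, 438 and 452 CPM in the libraries labelled 5XFAD and at 453, 503, 479, 458 and 466 CPM in those labelled 5XFAD;Neu cKO. All 5 of the latter lay above the median of the former, and only 5XFAD replicate 1 reached into their range. The means were 444.0 ± 15.8 and 471.9 ± 19.6 CPM (SD, n = 5 each), with the smallest spread between libraries of the 9 genes in relation to the mean in the libraries labelled 5XFAD. The log2 fold change was 0.088 with a 95% interval from -0.059 to 0.24 (edgeR quasi-likelihood test, Benjamini-Hochberg adjusted p = 0.871). The exact two-sided permutation test on the gene's own log2 CPM, which uses no count model, gave p = 0.0317 unadjusted (n = 5 per group), and with any 1 of 5XFAD replicates 2, 3 and 4 or 5XFAD;Neu cKO replicates 2, 3 and 5 left out the same exact p ranged from 0.0556 to 0.0873. It is 1 of 9 such tests.

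Camk2d and Camk2g, the subunits found in most tissues, were measured at lower levels. Camk2d (chromosome 3, 126389945 to 126639982, plus strand) was at 75.6, 73.4, 79.7, 89.1 and 84.2 CPM in the libraries labelled 5XFAD and at 73.7, 81.1, 85.7, 71.8 and 66.1 CPM in those labelled 5XFAD;Neu cKO. Camk2g (chromosome 14, 20784942 to 20844541, minus strand) was at 91.9, 89.2, 81.2, 71.6 and 78.1 CPM and at 75.9, 80.2, 84.4, 96.1 and 94.1 CPM. Neither gene showed an order of the groups, and high and low libraries were found on both sides. The log2 fold changes were -0.087 (95% interval -0.31 to 0.13) for Camk2d and 0.066 (-0.15 to 0.28) for Camk2g (edgeR quasi-likelihood test, Benjamini-Hochberg adjusted p = 0.937 and 0.961). Unnamed transcripts annotated inside Camk2d on its own strand, 7 in number, were counted 0 to 36 times each per library.

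Because shares within a family do not depend on how the libraries are scaled, the 4 subunits were also compared as parts of their sum. Camk2a took 75.4% ± 1.59 of CaM kinase II reads in the libraries labelled 5XFAD and 73.7% ± 1.67 in those labelled 5XFAD;Neu cKO (SD, n = 5 each). Camk2b took 18.02% ± 1.26 and 19.6% ± 1.30, Camk2d 3.27% ± 0.441 and 3.14% ± 0.386, and Camk2g 3.33% ± 0.196 and 3.57% ± 0.382. The composition was thus close in all 10 libraries, with Camk2a between 71.8% and 78.0% and Camk2b between 15.9% and 20.8%. The differences in mean share were -1.66 percentage points for Camk2a (exact two-sided permutation test, p = 0.159, adjusted 0.370) and 1.55 for Camk2b (exact p = 0.103, adjusted 0.370), those for Camk2d and Camk2g were -0.133 and 0.241, and no adjusted p over the 7 shares and ratios tested was under 0.05.

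**Figure D2:**
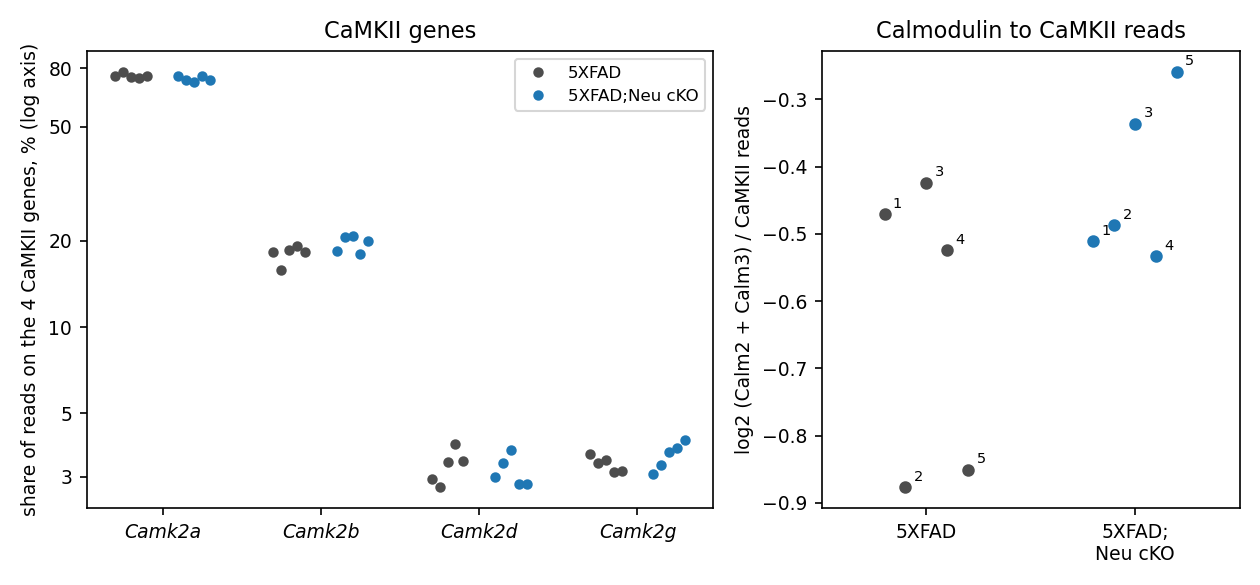
Left, the share of each CaM kinase II gene in the reads on all 4 (percent, log axis), 1 point per library, with libraries labelled 5XFAD in grey and 5XFAD;Neu cKO in blue. Right, the log2 ratio of Calm2 plus Calm3 reads to CaM kinase II reads, numbered by replicate, where 5XFAD replicates 2 and 5 lie at -0.88 and -0.85 and the other 8 libraries between -0.53 and -0.26.

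Of the single-chain kinases, Camk4 passes calcium signals to the transcription factor CREB in the nucleus and lies on chromosome 18 from 33067984 to 33328821 (plus strand). It was at 26.6, 41.1, 38.9, 36.4 and 26.7 CPM in the libraries labelled 5XFAD and at 35.7, 21.3, 31.6, 32.3 and 39.1 CPM in those labelled 5XFAD;Neu cKO. The lowest library, 5XFAD;Neu cKO replicate 2, and the highest, 5XFAD replicate 2, were thus in different groups, but the values between them were mixed. With 116 to 286 reads per library it had the widest interval of the 9 genes, from -0.41 to 0.24 (95%) around a log2 fold change of -0.082 that turned to 0.031 without 5XFAD;Neu cKO replicate 2 and to 0.0070 with plain library totals (edgeR quasi-likelihood test, Benjamini-Hochberg adjusted p = 0.967).

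Camk1, a cytoplasmic kinase of growth cones and dendrites, lies on chromosome 6 from 113311071 to 113321106 (minus strand). It was at 40.1, 35.0, 36.5, 35.0 and 33.2 CPM in the libraries labelled 5XFAD and at 33.7, 44.0, 39.8, 49.6 and 43.1 CPM in those labelled 5XFAD;Neu cKO. In the latter group 4 of 5 libraries lay above the median of the former, while replicate 1 lay near its bottom. The log2 fold change of 0.22 was the largest of the 9, with a 95% interval from -0.057 to 0.50 (edgeR quasi-likelihood test, Benjamini-Hochberg adjusted p = 0.776). The exact two-sided permutation p was 0.0794 (n = 5 per group), and with 1 library left out from 0.0238 (without 5XFAD;Neu cKO replicate 1) to 0.151 (without 5XFAD;Neu cKO replicate 4). Counting error alone is not small for a gene with 148 to 303 reads per library, and the opposite-strand gene Ogg1 at its 3′ end had 5 to 20.

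Among the calmodulin genes, Calm2 (chromosome 17, 87740829 to 87754363, minus strand) was at 1459, 1097, 1427, 1267 and 1076 CPM in the libraries labelled 5XFAD and at 1369, 1392, 1458, 1399 and 1513 CPM in those labelled 5XFAD;Neu cKO. The libraries labelled 5XFAD were spread more widely, with an SD of 178.7 against 58.6 CPM (n = 5 each), and their range took in 4 of the 5 others. The means were 1265 and 1426 CPM, a log2 fold change of 0.17 with a 95% interval from 0.027 to 0.32 (edgeR quasi-likelihood test, Benjamini-Hochberg adjusted p = 0.499). The unadjusted edgeR p was over 0.05 without 5XFAD replicate 2, 5XFAD replicate 5 or 5XFAD;Neu cKO replicate 5, and the log2 fold change was 0.12 without either of the former. The exact two-sided permutation test gave p = 0.119 (n = 5 per group), and with 1 library left out from 0.0317 (without 5XFAD replicate 1) to 0.222 (without 5XFAD;Neu cKO replicate 5). The low libraries, 5XFAD replicates 2 and 5, were also those with the fewest reads on genes, 4693831 and 4320504, and the part of depth in the difference was not tested.

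Calm3 (chromosome 7, 16649290 to 16658156, minus strand) was at 385, 354, 338, 324 and 298 CPM in the libraries labelled 5XFAD and at 363, 342, 366, 359 and 437 CPM in those labelled 5XFAD;Neu cKO. Replicate 5 of the latter stood above the rest of its group, and the other 4 lay inside the range of the libraries labelled 5XFAD. The log2 fold change was 0.14 with a 95% interval from -0.029 to 0.30 (edgeR quasi-likelihood test, Benjamini-Hochberg adjusted p = 0.748). The exact two-sided permutation p was 0.159 (n = 5 per group), and with 1 library left out from 0.0397 (without 5XFAD replicate 1) to 0.333 (without 5XFAD;Neu cKO replicate 5), where the difference of mean log2 CPM was 0.077. Calm2 made up 78.7% ± 1.96 of Calm2 and Calm3 reads in the libraries labelled 5XFAD and 79.3% ± 1.05 in those labelled 5XFAD;Neu cKO (SD, n = 5 each), a difference of 0.585 percentage points that turned to -0.191 without 5XFAD replicate 2 (exact permutation p = 0.611, adjusted 0.619).

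Nrgn (chromosome 9, 37452275 to 37464689, minus strand) was at 2257, 2456, 2050, 2014 and 1970 CPM in the libraries labelled 5XFAD and at 2132, 1938, 1878, 2126 and 2040 CPM in those labelled 5XFAD;Neu cKO. 5XFAD replicates 1 and 2 were the highest of the 10, and the other 3 fell within the range of the libraries labelled 5XFAD;Neu cKO. The means were 2149 ± 203.8 and 2023 ± 113 CPM (SD, n = 5 each), a log2 fold change of -0.088 with a 95% interval from -0.22 to 0.043 that turned to 0.0027 with plain library totals (edgeR quasi-likelihood test, Benjamini-Hochberg adjusted p = 0.848). Nrgn and Camk2a, both used as markers of excitatory forebrain neurons, had a log2 ratio of 0.20 in the libraries labelled 5XFAD and 0.18 in those labelled 5XFAD;Neu cKO (difference -0.020, exact two-sided permutation p = 0.619, adjusted 0.619, n = 5 per group).

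The log2 ratio of Calm2 plus Calm3 to CaM kinase II reads compares activator and kinase within a library. It was -0.47, -0.88, -0.42, -0.52 and -0.85 in the libraries labelled 5XFAD and -0.51, -0.49, -0.34, -0.53 and -0.26 in those labelled 5XFAD;Neu cKO. 5XFAD replicates 2 and 5 lay below all other libraries, and 5XFAD;Neu cKO replicates 3 and 5 above all libraries labelled 5XFAD. The remaining libraries of the groups were interleaved. The difference of 0.20 was within the spread between libraries (exact permutation p = 0.143, adjusted 0.370, n = 5 per group).

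**Figure D3:**
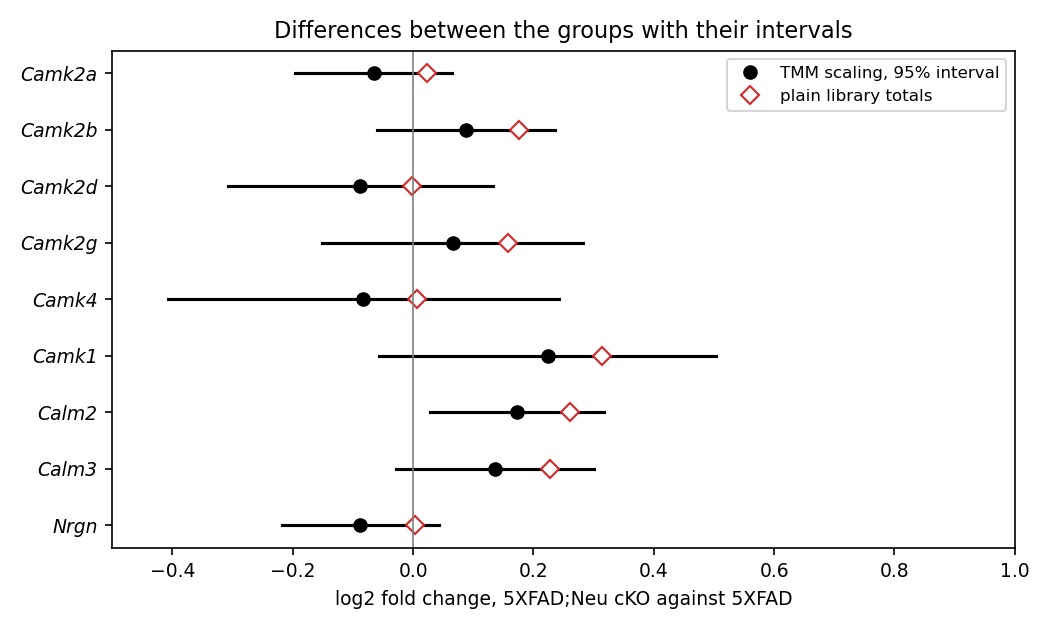
Log2 fold change of the 9 genes (horizontal axis, 5XFAD;Neu cKO against 5XFAD, 5 libraries each), with points and lines for the TMM-scaled estimate and its 95% interval and open diamonds for the estimate with plain library totals. Intervals of all but Calm2 (0.027 to 0.32) take in 0, and plain totals move every gene to the right, turning the sign of Camk2a, Camk4 and Nrgn.

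How the 9 genes varied together was examined after each group's mean had been subtracted, over 36 pairs and 10 libraries. No pair had an adjusted p under 0.05, and 6 had an unadjusted p under 0.05 (exact two-sided permutation within groups). Camk2a and Nrgn had r = 0.84 (exact p = 0.00806, adjusted 0.138) and rho = 0.76 (exact p = 0.0265, adjusted 0.318), and r was 0.62 without the 2 libraries farthest out in Camk2a. Camk2b and Camk4 had r = -0.88 (exact p = 0.00368, adjusted 0.133) and rho = -0.76 (exact p = 0.0238, adjusted 0.318), and r was -0.68 without the 2 libraries farthest out in Camk2b. Camk2d and Nrgn had r = -0.77 (exact p = 0.0115, adjusted 0.138) and rho = -0.75 (exact p = 0.0206, adjusted 0.318), with r at -0.91 without the 2 libraries farthest out in Camk2d. Calm2 and Calm3, 2 genes for the same protein, had r = 0.57 (exact p = 0.0993, adjusted 0.357) and rho = 0.61 (exact p = 0.106, adjusted 0.382), and r was 0.78 with 2 libraries left out. With plain library totals these 4 pairs had r = 0.64, -0.58, -0.90 and 0.62, and again no pair had an adjusted p under 0.05.

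**Figure D4:**
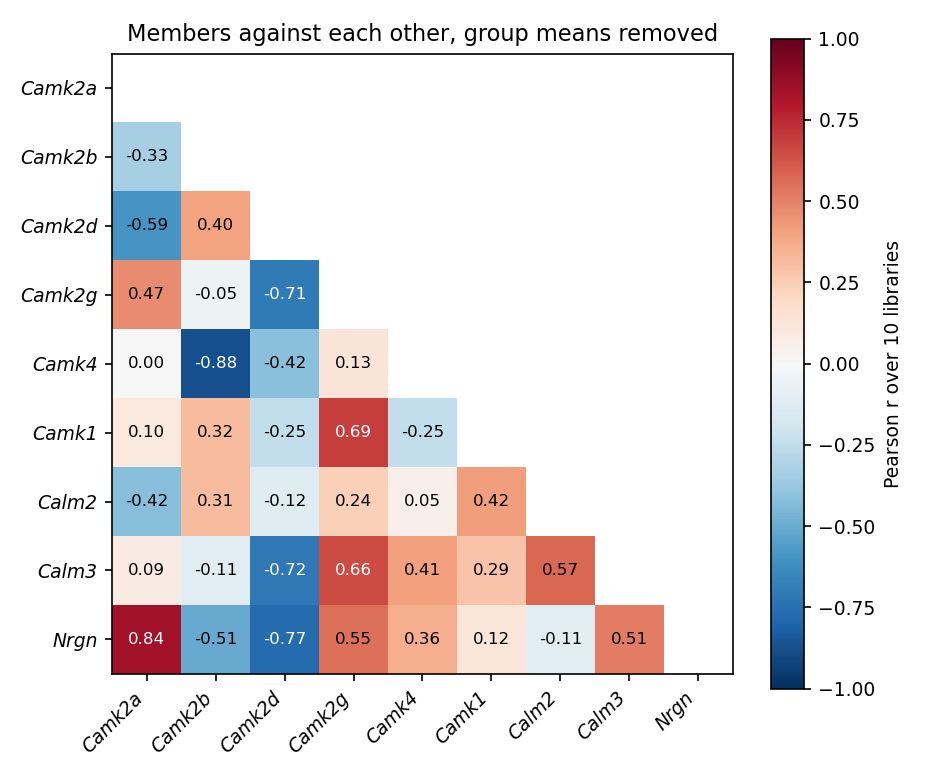
Pearson r of log2 CPM between each pair of the 9 genes over 10 libraries with the group means removed, from -1 (blue) to 1 (red), with the value in each cell. The most positive cell is Camk2a with Nrgn (0.84) and the most negative Camk2b with Camk4 (-0.88), and no pair passed the test after adjustment over 36 pairs.

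The genes whose pattern over the 10 libraries was most like that of Camk2a or Nrgn were sought by Pearson r of log2 CPM with group means removed, among 8841 genes with a mean of at least 10 CPM. For Camk2a these were Kif5b (0.96), Ctsf (0.94), Tenm4 (0.93), Nudcd3 (0.93) and Kif5a (0.93), and Kif5a and Kif5b encode heavy chains of kinesin 1, the motor of transport along axons and dendrites. For Nrgn they were Rpsa (0.97), Uba1 (0.96), Nrsn1 (0.96), Myo6 (0.95) and Mapk8ip1 (0.95). These are the highest of many values over few libraries, which share depth and scaling, and they are given as a description without a test.

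Other genes of calmodulin signalling were taken from 6 lists, and 0 genes in any of them passed the threshold against the 0.218% of all genes. Unadjusted p was under 0.05 for 13 of the 91 genes tested with a positive and 4 with a negative estimate, where the shares over all genes were 3.94% and 4.01%. In the list of CaM kinases and CaM kinase II inhibitors, 9 of 16 genes had a positive and 7 a negative estimate (median log2 fold change 0.058, against -0.00056 over all genes tested). Its smallest p-values belonged to the death-associated kinase Dapk1, to Camkk2, an upstream kinase of Camk1 and Camk4, and to Dapk2. Their log2 fold changes were 0.16, 0.11 and 0.92, with Dapk2 at means of 1.33 and 2.52 CPM. The smallest adjusted p of the list was 0.808 (edgeR quasi-likelihood, Benjamini-Hochberg). Of 12 genes listed as calmodulin and small calmodulin-binding proteins 10 could be tested, 6 positive and 4 negative (median 0.096). For the transcription factor Camta1 the log2 fold change was 0.17 (edgeR quasi-likelihood test, Benjamini-Hochberg adjusted p = 0.602), and it was 0.36 for Marcksl1 and -0.15 for Pcp4l1.

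Among 17 other enzymes and pumps that calmodulin regulates, 8 had positive and 9 negative estimates (median -0.00024), and 5 of the former and 4 of the latter had an unadjusted p under 0.05 (3.94% and 4.01% of all genes). Atp2b3, a plasma membrane calcium pump, averaged 140.7 ± 14.1 CPM in libraries labelled 5XFAD and 112.1 ± 15.7 CPM in those labelled 5XFAD;Neu cKO (SD, n = 5 each), a log2 fold change of -0.33 (edgeR quasi-likelihood test, Benjamini-Hochberg adjusted p = 0.248). Calcineurin, the calmodulin-activated phosphatase, gave the next 2 genes. Its regulatory subunit Ppp3r1 was at 441.4 ± 28.4 and 514.8 ± 35.4 CPM without overlap of the groups (SD, n = 5 each). Overlap was also absent for other list genes, among them Crtc2, and for 1.30% of all genes. The catalytic subunit Ppp3ca was at 1812 ± 127 and 2055 ± 114 CPM (SD, n = 5 each). The log2 fold changes of Ppp3r1 and Ppp3ca, 0.22 and 0.18, had Benjamini-Hochberg adjusted p = 0.351 and 0.390 in edgeR. With plain library totals these were 0.0485 and 0.0319. DESeq2 called 1 gene of the 6 lists, Ppp3r1, at an adjusted p of 0.0497. For some list genes, Fos and Crtc2 among them, DESeq2 gave no adjusted p, so they could not be called there.

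The 20 partners and substrates of CaM kinase II at the synapse had 12 positive and 8 negative estimates (median 0.022). Shank3, a scaffold of the postsynaptic density, was at 35.0 ± 11.1 and 50.4 ± 7.99 CPM (SD, n = 5 each), a log2 fold change of 0.52, Actn4 had a log2 fold change of 0.26 and the glutamate receptor subunit Gria1 one of -0.14, with adjusted p = 0.248, 0.564 and 0.680 (edgeR quasi-likelihood, Benjamini-Hochberg). With no filter on low counts Shank3 had an adjusted p of 0.0467. Of 16 targets of Camk4 and Camk1 in the nucleus, 13 had positive and 3 negative estimates (median 0.091). The immediate early gene Fos was at 16.4 ± 6.84 and 26.6 ± 4.39 CPM (SD, n = 5 each), a log2 fold change of 0.69 (edgeR quasi-likelihood test, Benjamini-Hochberg adjusted p = 0.254). The CREB coactivators Crtc2, at 4.10 and 10.3 CPM, and Crtc1 had log2 fold changes of 1.27 and -0.19 and adjusted p = 0.281 and 0.764 (edgeR quasi-likelihood, Benjamini-Hochberg). Of 12 genes listed for phosphatases of CaM kinases and their regulators, 8 were positive and 4 negative (median 0.073). The smallest p-values belonged to Ppp1cb, Ppp2cb and the regulator Ppp1r9b, with log2 fold changes of 0.29, 0.68 and 0.17. Adjusted p was 0.342 for Ppp1cb and 0.560 and 0.566 for the others (edgeR quasi-likelihood, Benjamini-Hochberg).

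**Figure D5:**
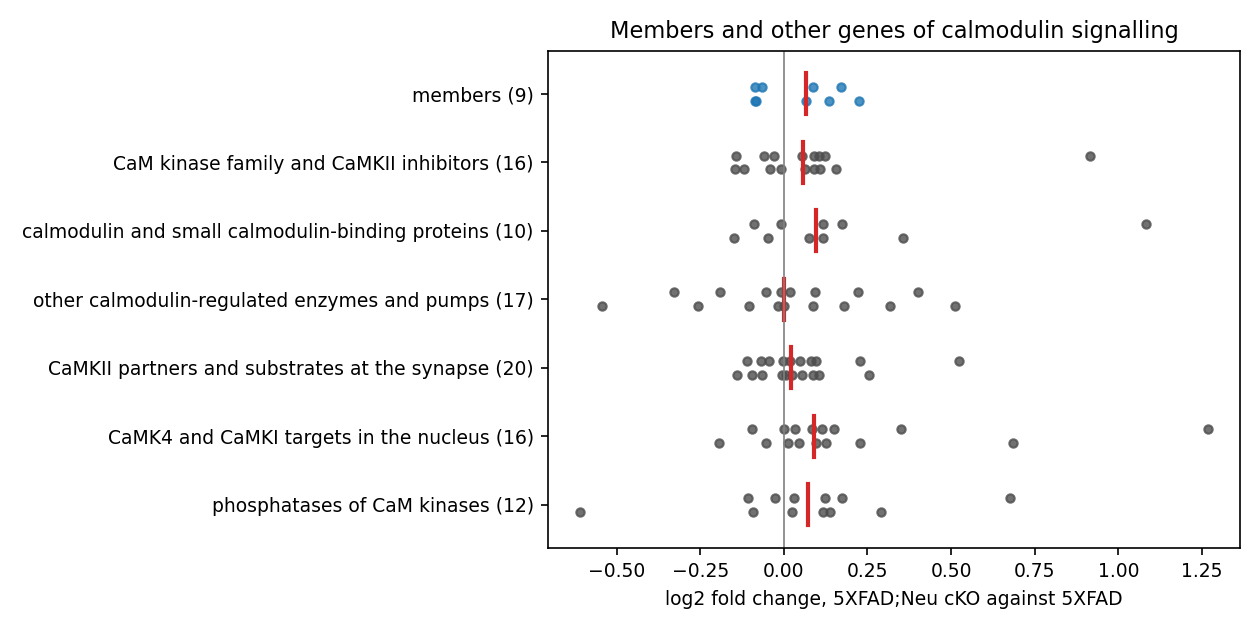
Log2 fold changes (horizontal axis, 5XFAD;Neu cKO against 5XFAD) of the 9 genes (blue) and of the genes of each of 6 lists of calmodulin signalling (grey, number tested in brackets), with a red bar at each median. Medians lie between -0.00024 and 0.096, no gene shown passed the threshold, and the widest estimates belong to genes with few reads such as Crtc2 (1.27).

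Markers of the cell types in cortex were read beside these values. All 12 microglial markers had a negative estimate (median log2 fold change -0.59), and 6 fell past the threshold, namely Ctss, C1qb, Tyrobp, Csf1r, C1qc and Cx3cr1 (log2 fold changes -1.21 to -0.51, edgeR quasi-likelihood, Benjamini-Hochberg). The calls of Csf1r (without 5XFAD replicate 2), C1qc (without 5XFAD replicate 4 or 5XFAD;Neu cKO replicate 5) and Cx3cr1 (without 5XFAD replicate 2 or 5XFAD;Neu cKO replicate 3, 4 or 5, and with plain library totals) were lost, at adjusted p from 0.0636 to 0.231. Of 10 astrocyte markers 9 had a negative estimate and Gfap fell past the threshold, and of 10 oligodendrocyte markers 9 had a negative estimate with none past it (median -0.22). Excitatory neuron markers had 7 positive and 5 negative estimates (median 0.034), and inhibitory neuron markers 4 and 6 (median -0.061). The remaining lists gave 2 and 4 (oligodendrocyte precursors), 7 and 3 (endothelium and mural cells), 3 and 7 (striatum), 4 and 6 (hippocampus) and 3 and 5 (thalamus), with none past the threshold. The part of cell makeup in the values of the 9 genes was not tested.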

How the data were processed

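RNA of 10 cortices was made into QuantSeq 3′ libraries. The authors trimmed the reads with bbduk, aligned them to GRCm39 with STAR 2.7.3a, used htseq-count to count them by Ensembl gene (HTSeq 0.9.1 in the submitters' processing notes) and deposited raw counts. Rows that name no gene (31.3% to 39.9% of reads kept were on no gene) entered neither library sizes nor tests. Non-unique alignments are outside that percentage. They numbered 3.10 to 3.98 per counted read (median 3.61) under the label 5XFAD. Under 5XFAD;Neu cKO they numbered 2.76 to 3.34 (median 3.05), and their part in the results was not tested.

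In R 4.3.3, edgeR 4.0.16 (TMM, glmQLFit, glmQLFTest) was fitted on genes with a total over 10, condition as the only term, and p-values were adjusted over 19268 genes with a threshold of 0.05. DESeq2 1.42.0 was an alternative, as were other filters, scalings, a replicate block and each library left out. Exact permutation tests used log2 CPM with a prior count of 0.5, and their smallest p is 0.00794. Replicates are separate mice. The edgeR fit was tested on counts simulated from its own dispersion estimates, and the permutation and Benjamini-Hochberg steps on known answers. Sequences came from the GRCm39 reference with GENCODE annotation, a later release than the authors'. No table of proteins was used.

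The members, lists and tests were chosen with earlier results of these data known. Named genes were the 9 members, Mylip, the 3 smallest p-values of each pathway list, marker genes past the threshold, and the 5 genes most like Camk2a and Nrgn. Some list genes are not reported here by name. Scaling by plain library totals in edgeR was added after seeing that TMM factors differed between groups (0.908 to 1.03 and 0.972 to 1.06).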

Additional observations from a re-analysis of the deposited data

Results flagged for a closer look

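In 3 of 32 groups of 5 libraries looked at, 1 library stood apart from the others by more than Dixon's limit of 0.71 for the gap over the range, where chance marks about 1 in 20 groups. Calm3 was at 436.69 CPM in 5XFAD;Neu cKO replicate 5, against 341.75 to 365.75 CPM in the other 4 libraries with that label. The share of Camk2b in CaM kinase II reads was 15.877% in 5XFAD replicate 2, the library highest in Camk2a, against 18.2% to 19.2% in the other 4. The log2 ratio of Nrgn to Camk2a was 0.080 in 5XFAD replicate 5, the library with the fewest reads on genes, against 0.22 to 0.25 in the other 4. None of these libraries was left out of a reported value.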

How the results depend on the processing

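None of the 9 genes passed the threshold under any of the 18 other settings. The count over all genes, 42 (11 higher and 31 lower under the label 5XFAD;Neu cKO), was 73 with DESeq2, 103 with no filter on low counts and 26 (without 5XFAD replicate 2) to 72 (without 5XFAD;Neu cKO replicate 1) with 1 library left out, and the cause was not tested. Plain library totals moved the median log2 fold change of all genes by 0.087 and gave 52 calls, 32 higher and 20 lower. With them the log2 fold change turned to 0.023 for Camk2a, 0.0070 for Camk4 and 0.0027 for Nrgn. The difference of mean log2 CPM became 0.024 for Camk2a, 0.00086 for Camk4 and 0.0032 for Nrgn. In the exact permutation test it passed an unadjusted 0.05 for Camk2b (0.18), Camk1 (0.30), Calm2 (0.27) and Calm3 (0.22). Camk2b had passed with TMM scaling too (exact p = 0.0317). The share of all genes that pass this exact test was not computed, so these passes have no background to be read against. With 1 library left out, fold changes ran from -0.17 to 0.031 for Camk4, -0.099 to -0.024 for Camk2a, -0.12 to -0.036 for Nrgn, -0.14 to -0.042 for Camk2d, 0.019 to 0.11 for Camk2g and 0.065 to 0.10 for Camk2b. Differences of mean log2 CPM then ran from -0.17 to 0.052 (Camk4), 0.065 to 0.10 (Camk2b), 0.15 to 0.29 (Camk1), 0.13 to 0.24 (Calm2) and 0.077 to 0.18 (Calm3), shares from -0.191 to 1.12 (Calm2), -0.279 to 0.022 (Camk2d), -2.12 to -0.998 (Camk2a) and 0.125 to 0.365 percentage points (Camk2g), and the log2 ratio of Nrgn to Camk2a from -0.051 to -0.0079.

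Replicate numbers did not pair the libraries: deviations of same-numbered libraries correlated at -0.090 to 0.057, and 1 of 10 libraries correlated best with its own number. With the replicate block, 112 genes passed, 41 of the 42 among them and 0 of the 9, and Shank3, Fos and Crtc2 had adjusted p = 0.0257, 0.0293 and 0.00236 in edgeR. The widest changes that the 95% intervals of the 9 genes took in were -24.6% (Camk4) and 41.8% (Camk1), and the interval of Camk2a ran from -12.7% to 4.62%.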
